A study of Homo sapiens with 6 samples.

Results

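The 39 genes described here encode proteins of homologous recombination and of the Fanconi anemia pathway. They were taken by gene name from the 58735 genes of the deposited table, with none on chromosome 18 or in a stretch of chromosome 5 whose genes were higher in BARD1-expressing cells. Each name was found once, and all 39 were among the 15400 genes with enough reads to be tested. Each member had between 67 and 9618 reads in a library. The list does not hold BARD1 or BRCA1, which are given with the other genes of the pathway.

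RNA was sequenced from 3 libraries of BARD1-expressing human ovarian carcinoma cells and 3 libraries of control cells, all labelled 48 h and as stable cells. The BARD1-expressing cells were made by transducing OVCAR8 cells with lentivirus that carries the open reading frame of BARD1, expressed as GFP-BARD1. The genotype of the other group is given as control, and neither a vector in those cells nor the number of clones behind either group is stated in the labels. The labels disagree on the cells: OVCAR8ip1 stands in the titles, SKOV3ip1 under cell line, and tumors of SKOV3ip1 under tissue. No group received a DNA-damaging agent according to the labels.

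Homologous recombination repairs DNA double-strand breaks by copying an intact sister chromatid, and so works mainly in S and G2 phase. Break ends are resected to single strands, and BRCA1 with its partner BARD1, then PALB2 and BRCA2, prepare those strands to search for the matching sequence. The Fanconi anemia pathway repairs crosslinks between DNA strands: a core complex with the E2 enzyme UBE2T attaches ubiquitin to FANCD2 and FANCI, which then call in nucleases and recombination. Ovarian carcinomas often carry defects in these genes, and cells that lack recombination are sensitive to inhibitors of PARP1.

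Of the 39 genes, 1 was higher in BARD1-expressing cells, 5 were lower and 33 were not called, at a Benjamini-Hochberg adjusted p under 0.05 in edgeR's quasi-likelihood test across the 15400 genes. Of all tested genes, 16.5% were called higher, 12.4% lower and 29.0% in either direction, so the share of members called lower, 12.8%, was near the background, and the share called in either direction, 15.4%, was under it. The member that rose was UBE2T. Those that fell were XRCC3, RAD52, BRIP1, TOPBP1 and FANCG. No member changed by 1.5-fold or more, and the 95% interval of the fold change lay within 1.5-fold for 38 of 39 genes, XRCC3 being the exception. The count of 5 changed when single libraries were left out. It was 1 without BARD1-expressing library 3, 2 without BARD1-expressing library 2, and 3 without any 1 of the control libraries. Without BARD1-expressing library 1 it was 7, with 4 of the 5 kept. UBE2T was called higher each time. DESeq2 called 3 lower and 1 higher. As these are bulk libraries, fewer cells with a transcript and less of it per cell cannot be told apart.

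Small negative differences were frequent. The log2 fold change, BARD1-expressing over control, was below 0 for 31 of 39 members (79.5%), against 50.4% of all tested genes. It was also below 0 for 42 of the 59 tested other genes of the pathway (71.2%). The median log2 fold change was -0.09 over the members and 0.00 over all tested genes, and members ranged from -0.39 to 0.33. The groups did not overlap for 10 members (25.6%), 2 higher and 8 lower, against 40.9% of all tested genes. At an unadjusted p under 0.05 in edgeR, 9 of 39 members passed, against 38.6% of all tested genes, and 8 of 39 passed and were lower, against 17.5%. The median over members stayed below 0 in all 12 alternative analyses, between -0.12 and -0.06.

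**Figure D1:**
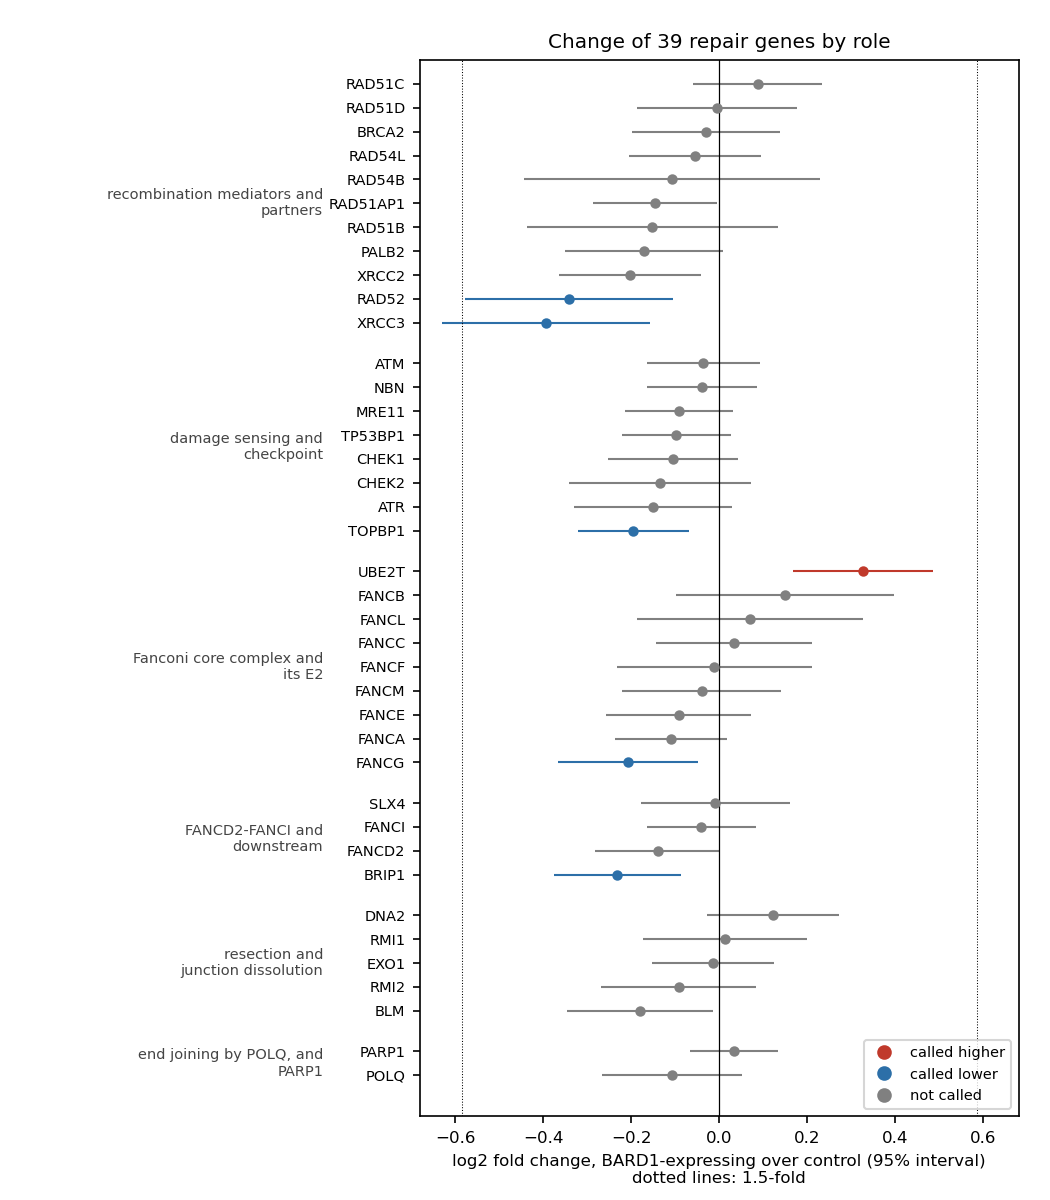
Log2 fold change (x axis, BARD1-expressing over control) of each of the 39 genes, grouped by role, with its 95% interval; dotted lines mark 1.5-fold. Most points lie between -0.2 and 0.2, UBE2T stands highest at 0.33 and XRCC3 lowest at -0.39.

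The promoters of called members are shown to set the sequence before the start of UBE2T, which rose, beside those of members that fell. Each sequence is the 250 bases before the RefSeq start on GRCh38.p14, 5′ to 3′ on the gene's own strand, the minus strand for all 5. RAD52 has several annotated starts and is left out. Capitals mark 3 kinds of word, searched on both strands: E2F words (TTCCCGC or, in other forms, TTCGCGC or else TTGCCGC or lastly TTGGCGC), CHR words (TTTGAA or else TTCGAA) and CCAAT. E2F factors are regulators of S phase genes, and the CHR element is known from genes of G2 and mitosis. UBE2T lies at chr1:202341937-202342186, XRCC3 at chr14:103715452-103715701, BRIP1 at chr17:61863529-61863778, TOPBP1 at chr3:133661942-133662191 and FANCG at chr9:35079943-35080192.
UBE2T: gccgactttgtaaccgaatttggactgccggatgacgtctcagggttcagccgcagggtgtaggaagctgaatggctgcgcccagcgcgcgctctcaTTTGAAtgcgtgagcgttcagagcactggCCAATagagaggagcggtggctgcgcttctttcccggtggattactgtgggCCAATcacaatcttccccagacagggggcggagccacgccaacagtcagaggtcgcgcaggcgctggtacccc
XRCC3: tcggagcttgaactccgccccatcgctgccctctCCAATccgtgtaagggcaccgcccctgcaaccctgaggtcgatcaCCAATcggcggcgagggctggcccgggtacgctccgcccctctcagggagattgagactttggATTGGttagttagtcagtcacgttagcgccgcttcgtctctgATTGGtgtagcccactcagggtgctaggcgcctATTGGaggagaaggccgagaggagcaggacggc
BRIP1: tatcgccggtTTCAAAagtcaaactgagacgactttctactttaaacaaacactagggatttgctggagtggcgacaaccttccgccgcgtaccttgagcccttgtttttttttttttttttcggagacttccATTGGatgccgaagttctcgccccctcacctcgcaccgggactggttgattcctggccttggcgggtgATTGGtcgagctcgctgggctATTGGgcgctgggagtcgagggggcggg
TOPBP1: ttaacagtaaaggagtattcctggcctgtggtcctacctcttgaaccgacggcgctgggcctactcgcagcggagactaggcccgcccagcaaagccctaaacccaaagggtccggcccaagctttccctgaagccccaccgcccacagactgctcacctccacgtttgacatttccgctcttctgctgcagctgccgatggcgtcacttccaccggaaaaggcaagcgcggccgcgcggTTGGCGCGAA
FANCG: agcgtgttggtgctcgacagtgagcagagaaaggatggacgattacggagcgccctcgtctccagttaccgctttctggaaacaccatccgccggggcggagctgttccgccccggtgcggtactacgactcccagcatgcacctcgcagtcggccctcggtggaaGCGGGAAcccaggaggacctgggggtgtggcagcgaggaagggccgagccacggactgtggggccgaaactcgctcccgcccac

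The UBE2T window held a CHR word from 153 to 148 bases before the start and CCAAT words from 124 to 120 and from 73 to 69. XRCC3 held 5 CCAAT words and BRIP1 held 3, with 1 CHR word from 240 to 235 in BRIP1. TOPBP1 held 2 overlapping E2F words on opposite strands in the last 10 bases before the start, and FANCG held 1 from 84 to 78. Of the 34 members with a promoter in the table, 12 (35.3%) held an E2F word in at least 1 window, against 13.0% of 27305 genes. A CHR word was present for 5 members (14.7%), against 17.2% of genes, and CCAAT for 16 (47.1%), against 37.0%. The 27305 genes were not limited to the 15400 tested genes and were not matched to the members by base content. Whether base content or kind of gene had a part in these shares was not tested. Members that rose and members that fell both include windows with CHR and CCAAT words. A match is a run of letters and not a binding site.

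The level of each gene was set per length, as CPM (counts per 1e6 reads, with TMM factors to even out composition) per kilobase of exon that no other gene shares. PARP1, which senses strand breaks, stood first with 57.0 ± 1.49 in BARD1-expressing cells and 55.7 ± 1.93 CPM per kb in control cells (SD, n = 3 each). NBN, UBE2T and RAD51AP1 followed at 28.4, 25.9 and 23.2 CPM per kb over all 6 libraries. RAD51B stood last, at 0.816 ± 0.0453 in BARD1-expressing cells and 0.912 ± 0.0663 CPM per kb in control cells. Also below 3 CPM per kb were FANCB, BRCA2, RAD54B, RAD51D and FANCC. Of the 39 genes, 13 exceeded 10 CPM per kb. Of the 38 pairs of neighbours in this order, 27 differed by no more than the larger SD over the 6 libraries. Steps beyond it lay, among others, below PARP1, RAD51AP1, FANCI, TOPBP1 and PALB2 and above RAD51B.

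**Figure D2:**
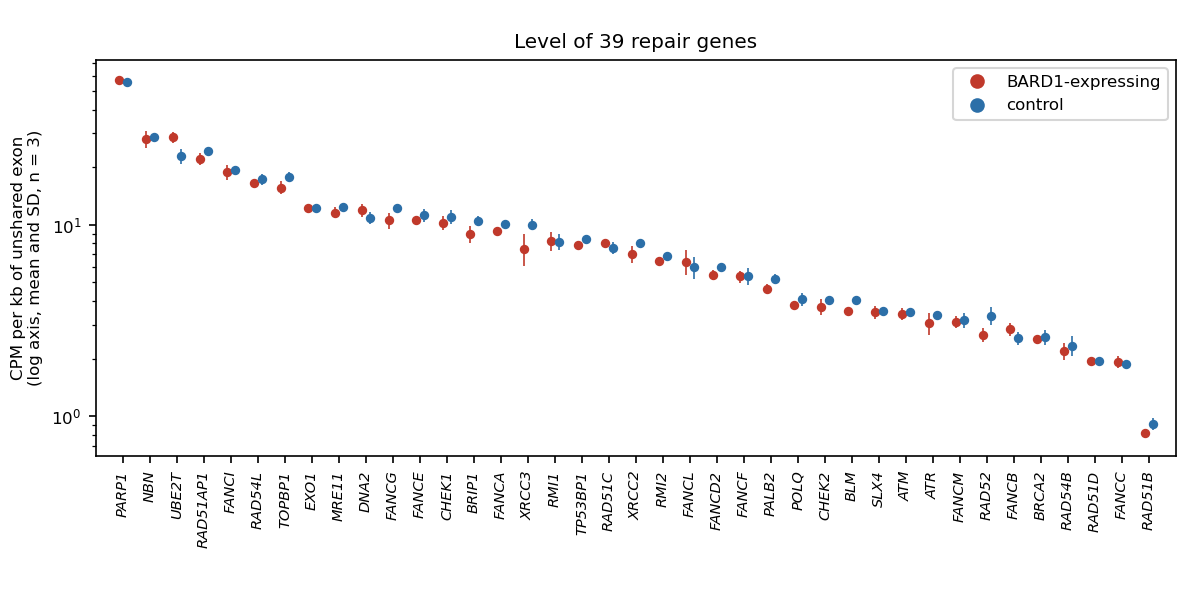
Level of each of the 39 genes as CPM per kb of unshared exon (log axis), mean and SD of 3 libraries, for BARD1-expressing and control cells, in order of level. PARP1 stands highest at 56.3 and RAD51B lowest at 0.864 over the 6 libraries, and the 2 groups' points lie close together for each gene.

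Levels and changes depend on which exon bases were counted. Of 710 genes whose exons lie wholly within exons of genes on the opposite strand, 709 had no read in any library and the other had 1, against 60.1% without a read among 41758 genes that overlap no other exon. Of 1008 genes wholly within exons of the same strand, 93.5% had no read, and none had more than 78 reads in all. Among protein-coding genes alone, 171 of 228 (75.0%) on the same strand had no read, against 17 of 17 on the opposite strand. Reads in shared bases were thus nearly all left out, less completely on the same strand. A member's count comes nearly all from its unshared exon bases. Of the 39 members, 21 share an exon base with another gene, 8 share over 10% and 2 share over 50%, namely XRCC3 (76.7%) and RAD54B (59.1%). TP53BP1 shares 28.7%, RAD54L 25.1% and FANCA 23.6%.

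**Figure D3:**
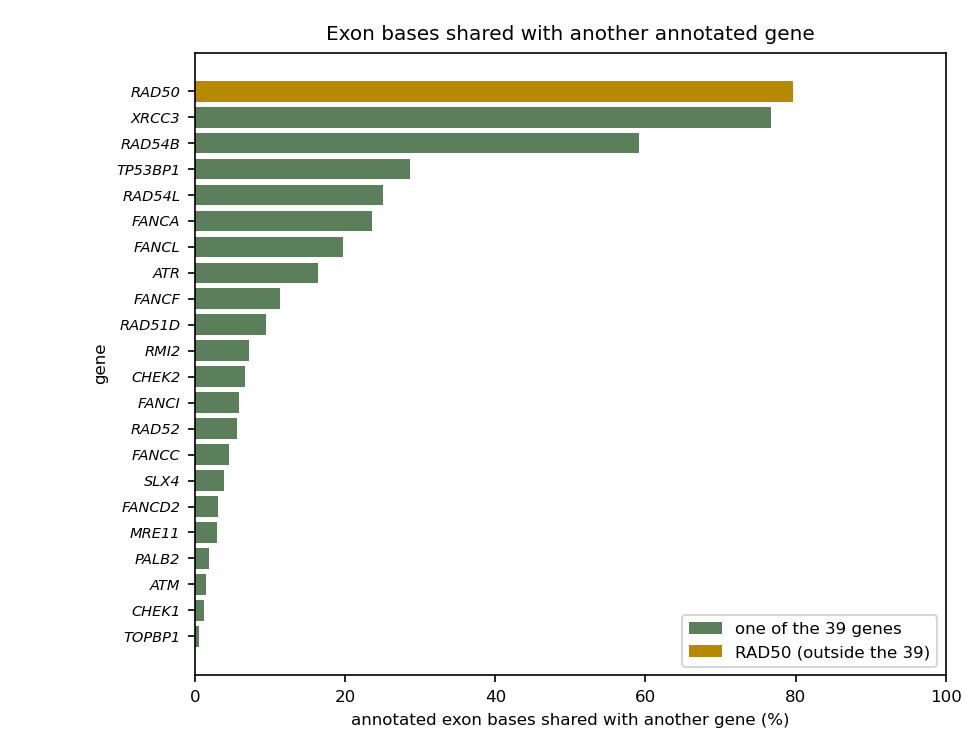
Percent of annotated exon bases shared with another gene (x axis) for members that share any, with RAD50 for comparison. XRCC3 stands highest among the members at 76.7%, and RAD50 stands at 79.7%.

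Of the 11 recombination mediators and their partners, 2 fell, none rose, and the median log2 fold change was -0.15, with 10 of 11 below 0. XRCC3, which works with RAD51C in the late steps of recombination, lies on the minus strand at chr14:103697609-103715504 (GRCh38, as for all gene positions; ENSG00000126215). It had 11.1, 15.9 and 12.5 CPM in BARD1-expressing libraries, against 18.1, 18.4 and 16.2 CPM in control libraries. All 3 BARD1-expressing values lay below all 3 control values, with library 1 lowest. The mean was 13.2 ± 2.44 CPM in BARD1-expressing and 17.6 ± 1.17 CPM in control cells (SD, n = 3 each), a log2 fold change of -0.39 ± 0.115 (SE; edgeR adjusted p = 0.0114). Only 1751 of its 7507 exon bases are unshared, so the value rests on 141, 384 and 189 reads in BARD1-expressing libraries and 439, 420 and 352 reads in control libraries. KLC1, a kinesin light chain gene on the opposite strand that shares those exons, averaged 42.8 CPM in BARD1-expressing and 45.1 CPM in control cells and was not called (log2 fold change -0.07 ± 0.083; edgeR adjusted p = 0.600). The XRCC3 call was lost without BARD1-expressing library 3 (edgeR adjusted p = 0.0576).

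RAD52, which anneals complementary single strands and in mammals backs up BRCA2, lies at chr12:912077-990053 (ENSG00000002016). Its values were 11.5, 10.3 and 9.82 CPM in BARD1-expressing libraries and 14.6, 11.8 and 13.5 CPM in control libraries. The groups did not overlap, though BARD1-expressing library 1 came close to control library 2. The mean was 10.5 ± 0.858 CPM in BARD1-expressing and 13.3 ± 1.42 CPM in control cells, a log2 fold change of -0.34 ± 0.115 (edgeR adjusted p = 0.0270). The call was lost in 5 of 12 alternatives: DESeq2 (adjusted p = 0.0782) and without BARD1-expressing library 2 (edgeR adjusted p = 0.0784), BARD1-expressing library 3 (0.108), control library 1 (0.129) or control library 3 (0.0602).

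BRCA2, the mediator that acts on resected DNA, lies at chr13:32315474-32400266 (ENSG00000139618). It had 32.8, 31.1 and 29.4 CPM in BARD1-expressing libraries and 30.9, 29.4 and 34.8 CPM in control libraries, which overlapped throughout. Its log2 fold change was -0.03 ± 0.081 (edgeR adjusted p = 0.829), with a 95% interval of -0.20 to 0.14. PALB2 (chr16:23603160-23641310), the bridge between BRCA1 and BRCA2, had 22.9, 20.6 and 21.4 CPM in BARD1-expressing libraries and 22.7, 24.5 and 25.7 CPM in control libraries. BARD1-expressing library 1 lay above control library 1, so the groups overlapped, at a log2 fold change of -0.17 ± 0.086 (edgeR adjusted p = 0.150; 95% interval -0.35 to 0.01).

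XRCC2, which works with RAD51B, RAD51C and RAD51D, had 37.7, 30.9 and 33.4 CPM in BARD1-expressing libraries, against 39.6, 37.8 and 39.2 CPM in control libraries, without overlap. Its log2 fold change of -0.20 ± 0.078 just missed the call (edgeR adjusted p = 0.0553), and it was called in 5 of 12 alternatives. RAD51AP1, which stimulates strand invasion, had a log2 fold change of -0.15 and was called in 1 alternative. The rest of this group was not called: RAD51B at -0.15, RAD54B at -0.11, RAD54L at -0.05, RAD51D at -0.01 and RAD51C at 0.09 on the log2 scale. RAD51B and RAD54B had under 10 CPM, and their 95% intervals were wide (-0.44 to 0.13 for RAD51B and -0.44 to 0.23 for RAD54B).

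Of the 8 genes of damage sensing and checkpoint signalling, 1 fell, and all 8 log2 fold changes were below 0, with a median of -0.10. TOPBP1, a scaffold that activates the kinase ATR, lies at chr3:133598175-133662380 (ENSG00000163781). It had 124, 107 and 111 CPM in BARD1-expressing libraries and 123, 137 and 131 CPM in control libraries. BARD1-expressing library 1 lay above control library 1, so the groups overlapped. The mean was 113.8 ± 8.82 CPM in BARD1-expressing and 129.9 ± 7.07 CPM in control cells, a log2 fold change of -0.20 ± 0.061 (edgeR adjusted p = 0.0173). The call was lost without BARD1-expressing library 2 (edgeR adjusted p = 0.0775), BARD1-expressing library 3 (0.0979) or control library 2 (0.119).

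ATM (chr11:108222484-108369102), the kinase that answers double-strand breaks, had 86.1, 75.0 and 82.02 CPM in BARD1-expressing libraries and 86.2, 81.6 and 80.8 CPM in control libraries. The groups overlapped, with a log2 fold change of -0.04 ± 0.062 (edgeR adjusted p = 0.710; 95% interval -0.17 to 0.09). ATR (chr3:142449235-142578826), the kinase that answers single-stranded DNA, had 34.3, 27.0 and 34.6 CPM in BARD1-expressing libraries, against 35.5, 35.1 and 34.9 CPM in control libraries. All BARD1-expressing values lay below all control values, with library 2 farthest below and the other 2 by less than 1 CPM. Its log2 fold change of -0.15 ± 0.087 was not called (edgeR adjusted p = 0.212; 95% interval -0.33 to 0.03). The ATR and ATM effector kinases CHEK1 and CHEK2 had log2 fold changes of -0.10 and -0.14, and the nuclease MRE11 and its partner NBN of -0.09 and -0.04. TP53BP1, which restrains resection, had a log2 fold change of -0.10 with groups that did not overlap (edgeR adjusted p = 0.247).

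The 9 genes of the Fanconi core complex with its E2 enzyme were spread around a median of -0.01, with 1 gene up and 1 down. UBE2T, the E2 that passes ubiquitin to FANCD2, lies at chr1:202331657-202341980 (ENSG00000077152). It had 50.9, 44.6 and 47.3 CPM in BARD1-expressing libraries, against 35.3, 36.5 and 41.7 CPM in control libraries. Every BARD1-expressing value lay above every control value, the closest being BARD1-expressing library 2 and control library 3. The mean was 47.6 ± 3.15 CPM in BARD1-expressing and 37.8 ± 3.37 CPM in control cells, a log2 fold change of 0.33 ± 0.077 or 1.255-fold (edgeR adjusted p = 0.00224). UBE2T was called higher in 12 of 12 alternatives, with log2 fold changes of 0.27 to 0.40. It shares no exon base with another gene. The 20 tested genes around UBE2T on chromosome 1, 10 on each side, had a median log2 fold change of 0.13, with 4 of them higher and none lower. Of all tested protein-coding genes, 18.7% were called higher. Around the members that fell, such medians were 0.12 for RAD52, 0.11 for XRCC3, 0.04 for BRIP1, 0.03 for FANCG and -0.02 for TOPBP1.

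FANCG, a core complex subunit, lies at chr9:35073835-35080016 (ENSG00000221829). It had 33.8, 39.8 and 40.8 CPM in BARD1-expressing libraries and 46.0, 44.7 and 41.8 CPM in control libraries. The groups did not overlap, but BARD1-expressing library 3 and control library 3 lay 1 CPM apart. The mean was 38.1 ± 3.77 CPM in BARD1-expressing and 44.2 ± 2.11 CPM in control cells, a log2 fold change of -0.21 ± 0.077 (edgeR adjusted p = 0.0459). The call was lost in 5 of 12 alternatives: DESeq2 (adjusted p = 0.0826), the replicate block (edgeR adjusted p = 0.0655), and without BARD1-expressing library 1 (0.161), control library 1 (0.144) or control library 2 (0.121).

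The other subunits were not called. FANCA stood at -0.11, FANCE at -0.09, FANCM at -0.04, FANCF at -0.01, FANCC at 0.03, FANCL, the E3 ligase of the complex, at 0.07 and FANCB at 0.15 on the log2 scale. FANCB did not overlap between groups (9.75, 9.75 and 11.2 CPM in BARD1-expressing libraries, against 8.37, 9.59 and 9.69 CPM in control libraries), at an edgeR adjusted p of 0.386. FANCA shares 23.6% of its exon bases with ZNF276 on the opposite strand. ZNF276 averaged 12.2 CPM in BARD1-expressing and 16.5 CPM in control cells and was called lower, at a log2 fold change of -0.42 ± 0.115 (edgeR adjusted p = 0.0074).

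Among FANCD2, FANCI and the genes downstream, 1 of 4 fell, and all 4 log2 fold changes were below 0. BRIP1, a helicase that binds BRCA1 and is the Fanconi gene FANCJ, lies at chr17:61681266-61863521 (ENSG00000136492). It had 80.1, 67.2 and 67.0 CPM in BARD1-expressing libraries and 78.9, 83.3 and 88.6 CPM in control libraries. BARD1-expressing library 1 lay above control library 1, and the other BARD1-expressing libraries lay below all controls. The mean was 71.4 ± 7.54 CPM in BARD1-expressing and 83.6 ± 4.84 CPM in control cells, a log2 fold change of -0.23 ± 0.070 (edgeR adjusted p = 0.0143). The call was lost without BARD1-expressing library 2 (edgeR adjusted p = 0.0653), BARD1-expressing library 3 (0.108) or control library 3 (0.0697).

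FANCD2, the substrate of UBE2T, lies at chr3:10026414-10101930. It had 46.9, 41.5 and 44.7 CPM in BARD1-expressing libraries, against 49.4, 48.3 and 48.5 CPM in control libraries. The groups did not overlap and the controls lay close together, yet the log2 fold change of -0.14 ± 0.069 was not called (edgeR adjusted p = 0.136; 95% interval -0.28 to 0.00). It was called in 1 alternative, without BARD1-expressing library 1 (edgeR adjusted p = 0.0454). FANCI and the nuclease scaffold SLX4 had log2 fold changes of -0.04 and -0.01.

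**Figure D4:**
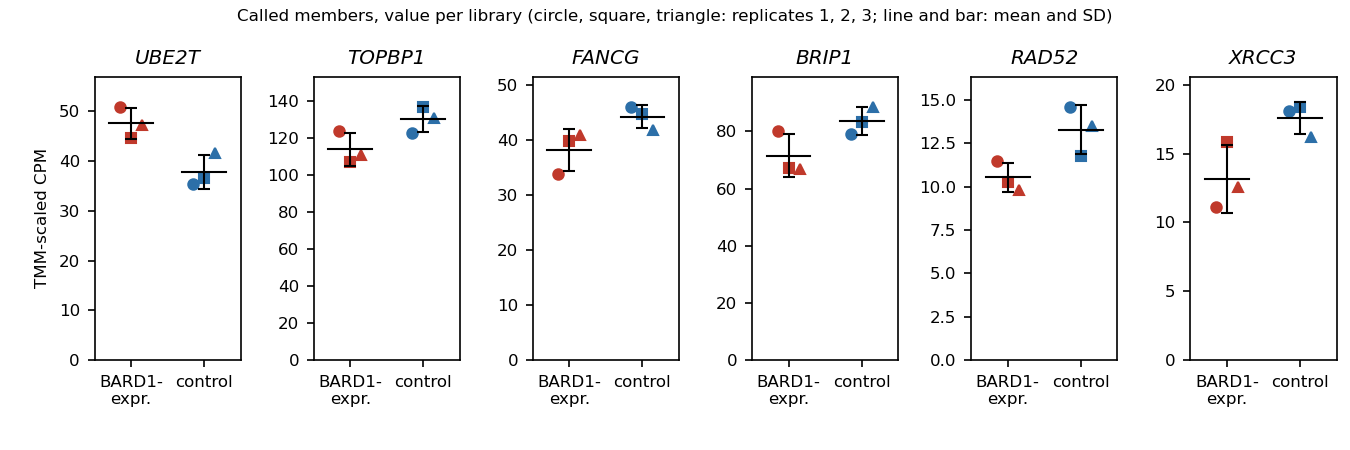
TMM-scaled CPM (y axis, from 0) of each called member in the 3 BARD1-expressing libraries and the 3 control libraries; symbols mark replicates, and line and bar give mean and SD. The groups are apart for UBE2T, XRCC3, RAD52 and FANCG and overlap for BRIP1 and TOPBP1.

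None of the 5 genes of end resection and junction dissolution was called in edgeR at the adjusted threshold, and 1 of them, BLM, had an unadjusted p under 0.05. BLM, the helicase mutated in Bloom syndrome, had 23.3, 23.6 and 24.4 CPM in BARD1-expressing libraries, against 28.0, 26.3 and 26.4 CPM in control libraries. The groups did not overlap, at a log2 fold change of -0.18 ± 0.080 (edgeR adjusted p = 0.0984). Its cofactors RMI1 and RMI2 had log2 fold changes of 0.01 and -0.09, the nuclease EXO1 of -0.01 and the nuclease-helicase DNA2 of 0.12. DESeq2 called none of these 5 either.

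PARP1 (chr1:226360691-226408079), the target of PARP inhibitors, had 418, 397 and 409.8 CPM in BARD1-expressing libraries and 383, 409 and 405 CPM in control libraries. The groups overlapped, at a log2 fold change of 0.03 ± 0.048 (edgeR adjusted p = 0.662; 95% interval -0.07 to 0.13), the narrowest interval among the members. POLQ, the polymerase of the end joining that takes over where recombination fails, had a log2 fold change of -0.11 and was not called. A p above the threshold does not show that a level was equal; the intervals give the sizes that remain possible.

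The negative differences were uneven across the 3 BARD1-expressing libraries. Taken against the control mean, the median member stood at -0.03, -0.14 and -0.08 (log2) in BARD1-expressing libraries 1, 2 and 3. Library 2 was the lowest of all 6 libraries for 19 of 39 members, although it was lowest for only 18.2% of all tested genes. BARD1-expressing libraries 1 and 3 were lowest for 5 and 6 members, and control libraries 1, 2 and 3 for 4, 4 and 1. The summed level of the 39 genes was 2215, 2015 and 2090 CPM in BARD1-expressing libraries and 2158, 2172 and 2225 CPM in control libraries. The sums overlapped, with library 1 of the BARD1-expressing cells within the control range. Whether depth, lowest in library 1 and highest in library 2 of the BARD1-expressing cells, had a part was not tested.

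**Figure D5:**
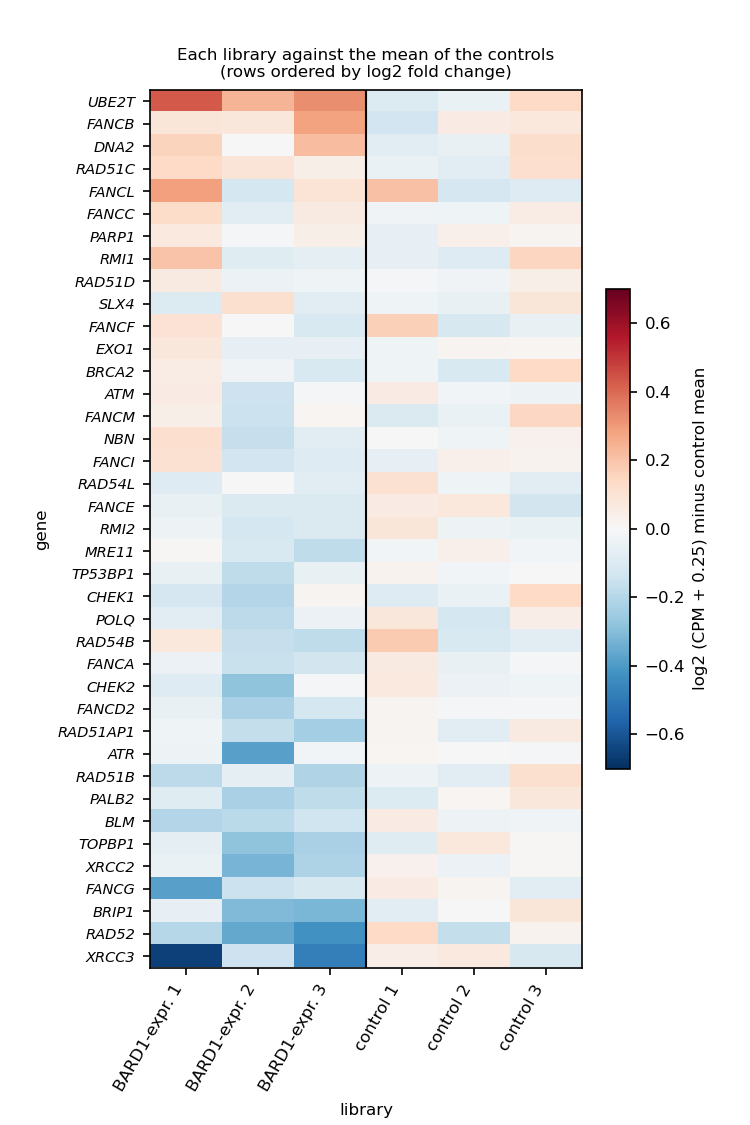
Colour gives log2 (CPM + 0.25) of each of the 39 genes (1 line each, ordered by log2 fold change) minus the mean of the controls, for the 3 BARD1-expressing libraries on the left and the 3 control libraries on the right. BARD1-expressing library 2 is below the lowest control for 27 genes, library 3 for 23 and library 1 for 13.

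BARD1 itself had 49.0, 44.3 and 45.7 CPM in BARD1-expressing libraries, against 17.1, 17.2 and 19.4 CPM in control libraries. Its log2 fold change was 1.37 ± 0.081 (edgeR adjusted p = 4.67e-12). The count does not tell reads of the introduced open reading frame from those of the cells' own BARD1 gene. Of 62 other genes of the pathway, BARD1 included, 59 were tested. Of these 59, 6 were higher and 11 lower (28.8%, against 29.0% of all tested genes), with a median log2 fold change of -0.06. The number lower of the 59 was 6 without BARD1-expressing library 3 and 7 without control library 1. The 6 higher include BARD1, the transduced gene, and RAD50 on chromosome 5, and the 11 lower include RBBP8 on chromosome 18. Outside chromosomes 5, 18 and X, 54 were tested, with 4 higher, BARD1 among them, and 10 lower (25.9%). BRCA1, the partner of BARD1, had 20.45, 19.9 and 17.8 CPM in BARD1-expressing libraries, against 23.4, 24.2 and 21.7 CPM in control libraries. The groups did not overlap, at a log2 fold change of -0.25 ± 0.090 (edgeR adjusted p = 0.0360), but the call was lost in 4 of 12 alternatives, DESeq2 and the analyses without BARD1-expressing library 3, control library 1 or control library 2. Besides BARD1, the called genes with the smallest p, with their log2 fold changes, were RBBP8, which starts resection, at -0.74, MAD2L2, of the shieldin complex that restrains resection, at 0.46, the helicase RECQL4 at -0.38, TONSL, which acts at stalled forks, at -0.29 and the ubiquitin ligase RNF8 at -0.44 (edgeR adjusted p between 3.09e-09 and 0.000596). RBBP8 lies on chromosome 18. Each of these calls held in 12 of 12 alternatives.

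Many repair genes vary with the cell cycle, so reference lists are given beside them. Of 20 genes of G2 and mitosis, 15 were higher and none lower, with a median log2 fold change of 0.18. On the log2 fold change scale, those with the smallest p were KIF20A, on chromosome 5, at 0.76, TPX2 at 0.42, KIF11 at 0.40 and CCNB2 at 0.36. Of 24 S phase genes, 3 were higher and 6 lower, with a median of -0.04, among them TYMS, on chromosome 18, at -0.46, MCM4 at -0.29, RRM2 at 0.24 and MCM6 at 0.23. Of 24 regulators of the E2F, DREAM and FOXM1 programmes, 5 were higher (20.8%) and 3 lower (12.5%), with a median of 0.01. The shares were 12.5% higher and 25% lower for the S phase genes, and 75% higher for the genes of G2 and mitosis. Among all tested genes, 16.5% were called higher and 12.4% lower, so the shares of the regulators were near the background. CDKN1A, the inhibitor of cyclin-dependent kinases, averaged 30.6 ± 1.49 CPM in BARD1-expressing and 13.6 ± 2.33 CPM in control cells (SD, n = 3 each; log2 fold change 1.18 ± 0.105, edgeR adjusted p = 4.2e-09). E2F8, E2F7 and CCND1 had log2 fold changes of 0.67, -0.39 and 0.23. The part of cell cycle differences in the members' values was not tested.

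Total counts were 12744310 to 24349158 in BARD1-expressing libraries and 21819199 to 23992482 in control libraries, and 3 counts correspond to 0.123 to 0.235 CPM. The libraries separated by group on the first principal component, which held 62.4% of the variance. Summed epithelial and ovarian carcinoma markers were 3929 to 4196 CPM in BARD1-expressing and 3958 to 4031 CPM in control libraries, with KRT19 and MUC16, the gene of CA-125, without a read. KRT8, KRT18 and KRT7 made up most of this sum. Of the 9 tested genes of this list, KRT7, FOLR1 and WT1 were called higher (log2 fold changes of 0.34, 0.56 and 1.43) and PAX8 lower, at 91.4 CPM on average in BARD1-expressing and 143 CPM in control cells. Summed leukocyte markers were 1.26 to 1.99 CPM in BARD1-expressing and 0.876 to 1.24 CPM in control libraries, and summed endothelial markers 1.49 to 2.32 CPM in BARD1-expressing and 0.788 to 1.02 CPM in control libraries. Of the leukocyte and endothelial lists, each with 1 tested gene, KDR was called higher, at 0.835 CPM on average in BARD1-expressing and 0.265 CPM in control cells, with CD3E without a read and PTPRC with 0.0221 CPM on average in BARD1-expressing libraries and 0 in control libraries. The fibroblast list summed to 840.8 to 888 CPM in BARD1-expressing and 1015 to 1083 CPM in control libraries, nearly all of it COL1A1 (845 CPM on average in BARD1-expressing and 1054 CPM in control cells), with DCN without a read. COL1A1 was called lower, while PDGFRB (13.75 CPM on average in BARD1-expressing and 4.81 CPM in control cells) was called higher, as were LUM and ACTA2, both at under 1 CPM on average in both groups. Mitochondrial genes took 0.965% to 1.31% of reads in BARD1-expressing and 1.90% to 2.40% in control libraries. The part of these marker and mitochondrial differences in the members' values was not tested.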

How the data were processed

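Gene expression was measured by RNA sequencing in 6 libraries, with mRNA selected on poly(T) beads and cDNA primed with random hexamers, per the labels' protocols. The authors deposited raw read counts per gene for 58735 genes. Tools named, per the submitters' processing notes, are DESeq2 1.20.0, featureCounts 1.5.0-p3 and HISAT2 2.0.5, with GRCh38 (hg38) as build; the options of each are not given in the sources used here. All gene spans equal those of GENCODE release 29, whose exons were used to find shared bases, with positions counted from 1.

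Counts were filtered with filterByExpr, scaled by edgeR's TMM factors and tested in R 4.3.3 with edgeR 4.0.16, by the robust quasi-likelihood F test on group alone (4 residual degrees of freedom), with Benjamini-Hochberg adjustment over 15400 genes. The script was tested on simulated data. CPM are counts per 1e6, and the alternative tool was DESeq2 1.42.0. The 12 alternatives were no filter on low counts, 3 other scalings, DESeq2, the replicate block, and leaving out each library in turn. An exact permutation test of 3 against 3 libraries cannot go below p = 0.1 and was not used. Promoters are RefSeq's. Replicate libraries differed by more than sampling noise (chi-square per degree of freedom 3.41 to 8.11). The labels call them biological without naming separate cultures, so the spread behind the p-values may be technical, and floors and depth cover counting error only.

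The members and all lists were chosen with earlier results of these data known. Full values were given for called members and for BRCA2, PALB2, ATM, ATR, FANCD2 and PARP1, and for other lists the called genes with the smallest p, with BRCA1 and BARD1; 1 gene of the lists is not reported here. XRCC2, BLM, FANCB and TP53BP1, partner genes of shared exons, and RAD50, SLX1A and SLX1B were chosen after their values were seen.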

Additional observations from a re-analysis of the deposited data

How the results depend on the processing

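Of the 39 genes, 5 were called lower. DESeq2 called 3, and leaving out each library in turn gave 1 to 7. The number called higher was 1 in every one of the 12 alternatives. Of the other pathway genes, 11 were called lower, and 6 to 14 when each library was left out in turn. None of the 6 called members changed the sign of its log2 fold change in the 12 alternatives. Over the scalings, the median of all tested genes stood between -0.01 and 0.00 (log2). The same replicate numbers did not pair the libraries: the correlations of their deviations were -0.11, -0.03 and -0.01, and no library correlated best with its own number. With the replicate block, 4 members were called lower and 1 higher, the calls of the first analysis other than FANCG. Depth limits the members with few reads: RAD54B had 67 to 140 reads in a library, and its 95% interval ran from -0.44 to 0.23 (log2).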

Other observations

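RAD50, which forms a complex with MRE11 and NBN, shares 79.7% of its exon bases with AC116366.3 annotated on the same strand, which had 4 reads in all. RAD50 was called higher (log2 fold change 0.57 ± 0.147; edgeR adjusted p = 0.00448) from 691 reads over the 6 libraries and lies on chromosome 5. SLX1A had no read and SLX1B had 1, with 86.2% and 82.4% of their exon bases shared. The unshared parts come to 1987 bases for RAD50, 339 for SLX1A and 433 for SLX1B.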
